A study of Mus musculus with 6 samples.

Results

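DNA replication and G1/S genes were examined in immortalized Kdm5a-null mouse embryonic fibroblasts that had received KDM5A again or an empty vector. The 33 genes were listed by name for their roles in copying DNA, and 32 of them had a probe set for a single gene among the 18194 genes measured on Affymetrix mouse M430 2.0 arrays. Chaf1a, a subunit of the CAF-1 histone chaperone, was not analysed here. Each gene was represented by its brightest probe set over the 6 arrays, leaving out those ending in _x_at, which can cross-hybridize, where another existed. Probe sets ending in _s_at were kept, as for Mcm2, Mcm7 and Gins2. No filter on low values was applied, and 30 of the 32 genes lay above the median gene in mean level. Tyms, the thymidylate synthase gene, lay at the 22.6th percentile and Gins1 at the 47.4th, so their values may not stand above background.

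There were 3 groups of 2 arrays each. The first group carried reintroduced KDM5A-H483A, a mutant with alanine in place of a catalytic histidine. The second carried reintroduced wild-type KDM5A, and the third an empty vector (EV). All 3 groups share the Kdm5a deletion, the mixed strain background and the immortalization, so cells with intact Kdm5a are not among them. Both arrays of a group are labelled as biological replicates. How the cultures were separated, whether a line is 1 clone and which promoter drives KDM5A are not stated. P-values therefore measure only the spread between these samples, which may be technical.

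KDM5A removes methyl groups from lysine 4 of histone H3 and was described as a partner of the retinoblastoma protein, which restrains E2F transcription factors. E2F factors switch on the genes of the G1/S transition in growing fibroblasts, among them those that license origins, build the replication fork, supply nucleotides and assemble new chromatin. The expression of such genes is therefore commonly read as a sign of proliferation.

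The promoters of these genes are shown first. Promoter letters were not used to choose the genes, but E2F factors switch on genes with these roles. A high share of E2F letters could therefore follow from that choice and is not independent support. RefSeq promoter windows (build GRCm38.p6, from 250 bases before to 50 bases after each start site) were present for 27 of the 32 genes. The letters searched on both strands were TTTCGCGC, TTTGGCGC, TTTCCCGC and TTTGCCGC, and matches may overlap. At least 1 match was found for 11 of these 27 genes (40.74%), against 550 of 14453 genes on the array with a window (3.81%). The CCAAT letters, the core of the NF-Y site, were found for 16 of the 27 genes (59.26%), against 42.0% of the array genes. Median GC content was 59.3% for the 27 windows and 58.7% for those of the array genes. A match is a description of letters and shows no binding.

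The stretches below come from upstream of the start site in 4 genes, with E2F letters in capitals, and were chosen to show a helicase subunit gene with several matches, a second helicase gene, an origin licensing gene and a polymerase gene. The Mcm6 stretch is chr1:128359736-128359825 on the minus strand, where 2 of its 3 matches overlap. The Mcm5 stretch is chr8:75109339-75109388 on the plus strand with 2 overlapping matches. Those of Cdc6 (chr11:98907991-98908040, plus strand) and Pola1 (chrX:93632266-93632315, minus strand) hold 1 match each, read on the opposite strand.
Mcm6: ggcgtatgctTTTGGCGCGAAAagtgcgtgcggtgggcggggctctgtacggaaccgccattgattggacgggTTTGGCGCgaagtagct
Mcm5: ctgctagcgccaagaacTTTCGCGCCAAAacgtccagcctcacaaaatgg
Cdc6: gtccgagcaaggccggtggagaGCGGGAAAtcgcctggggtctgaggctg
Pola1: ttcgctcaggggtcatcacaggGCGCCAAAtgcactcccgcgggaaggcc
The remaining genes with a match were Mcm3, Mcm7, Cdt1, Rfc3, Pold1, Lig1 and Uhrf1.

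All values below are deposited log2 values, 1 log2 unit being a doubling of signal, and group means carry the SD over n = 2 arrays. Where both arrays of a group are given, array 1 comes before array 2 and the group follows in brackets. Kdm5a read 6.11 and 5.89 (KDM5A-H483A), 5.96 and 5.83 (wild-type KDM5A) and 5.89 and 5.83 (EV). The sources used here do not place its probes relative to the deletion or the reintroduced sequence, so these values check neither. Of 11 fibroblast markers, at least 10 lay above the median gene in every array. Of 14 markers of leukocytes, endothelium, epithelium, nerve and muscle, 11 lay below the median gene in every array, and Kdr, Krt8 and Sox2 lay above it. The summed linear signal of these 14 markers was 382.3 and 424.0 (KDM5A-H483A), 387.1 and 430.9 (wild-type KDM5A) and 374.1 and 416.6 (EV).

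None of the 32 replication and G1/S genes passed the test between groups. In each KDM5A group, however, most of them were higher in array 2 than in array 1, while the 2 EV arrays lay close together. The median gene of the list stood 0.19 below its own mean over all arrays in the first KDM5A-H483A array and 0.31 above it in the second. For wild-type KDM5A it stood 0.26 below and 0.13 above, and in the EV arrays 0.01 and 0.06 below. At the median, the 2 arrays of each KDM5A group thus lay on either side of the EV arrays. In such bulk samples, more cells in S phase and more RNA per cell cannot be told apart.

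**Figure D1:**
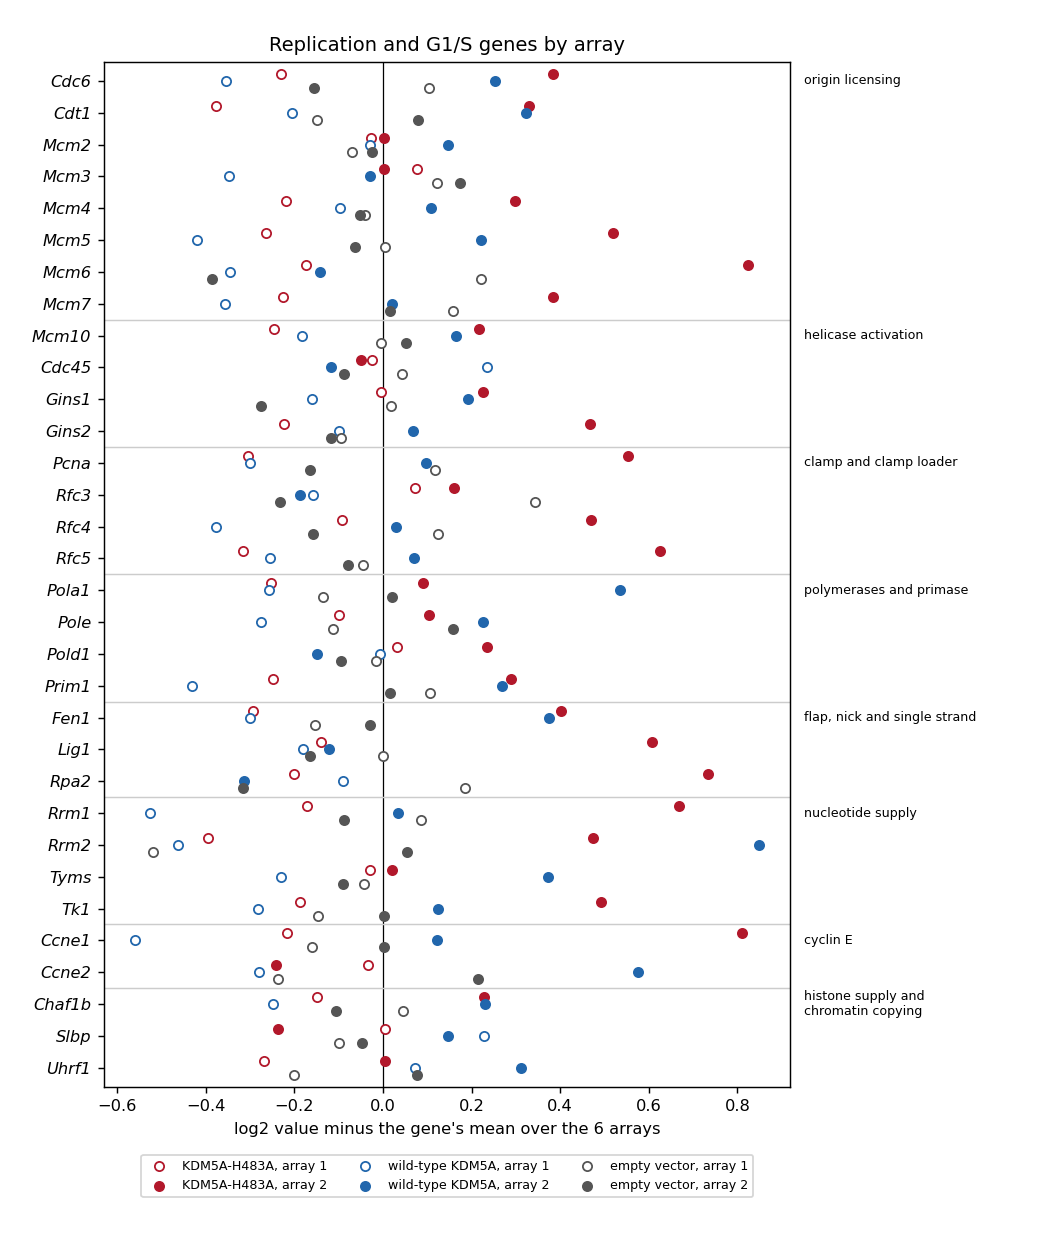
Each row is 1 of the 32 genes and each point 1 array, plotted as the log2 value minus the gene's mean over the 6 arrays, with open circles for array 1 and filled circles for array 2. The filled red and blue points of the KDM5A groups lie mostly right of the open ones, with Cdc45 and Slbp as exceptions in both groups, and the grey EV points lie between them for many genes.

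The first comparison asks which of these genes differ when wild-type KDM5A is returned to Kdm5a-null cells. Limma called 0 of 32 genes and 0 of 18194 genes overall (0%), and 0 of the 32 genes reached an unadjusted p under 0.05, where 2.52% of all genes did. The median log2 difference was -0.02 over the 32 genes, with 14 above 0, and 0.00 over all genes, of which 51.3% were above 0. The 95% confidence interval of a typical member reached 0.58 to either side of its difference, against 0.37 for the median gene of the array.

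Mcm3 had the smallest p of the list in this comparison. This subunit of the MCM helicase read 8.39 and 8.71 (wild-type KDM5A) against 8.86 and 8.91 (EV), a log2 difference of -0.34 (SE 0.15, unadjusted p = 0.0577, limma adjusted p = 1). Slbp, whose protein binds the stem-loop of histone mRNAs, read 9.72 and 9.64 (wild-type KDM5A) against 9.39 and 9.45 (EV), a log2 difference of 0.26 (SE 0.13, unadjusted p = 0.0987, limma adjusted p = 1). In both genes the arrays of the 2 groups did not overlap, and they were the only such genes among the 32, where 31.8% of all genes were apart. Uhrf1, which guides maintenance DNA methylation at the fork, averaged 8.03 ± 0.17 with wild-type KDM5A and 7.78 ± 0.20 with EV. Rfc3, a clamp loader subunit, averaged 5.56 ± 0.02 with wild-type KDM5A and 5.79 ± 0.41 with EV. Mcm7 averaged 9.96 ± 0.27 with wild-type KDM5A and 10.21 ± 0.10 with EV. The arrays of the 2 groups overlapped for these 3 genes. Left out in turn, the first wild-type KDM5A array gave 24 genes above 0 and a median of 0.20, and the second gave 6 and -0.21.

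The second comparison asks the same of KDM5A-H483A and uses the same EV arrays. Limma again called 0 of 32 genes, with 0% of all genes called, and 0 of the 32 reached an unadjusted p under 0.05, where 1.65% of all genes did. The median log2 difference from EV was 0.09 over the 32 genes, with 22 above 0, and 0.00 over all genes, of which 50.2% were above 0. Without the first KDM5A-H483A array the median was 0.35 with 28 genes above 0. Without the second it was -0.13 with 6 above 0.

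Pold1, the catalytic subunit of DNA polymerase delta, had the smallest p in this comparison. It read 6.37 and 6.57 (KDM5A-H483A) against 6.32 and 6.24 (EV), a log2 difference of 0.19 (SE 0.13, unadjusted p = 0.209, limma adjusted p = 0.999). Its arrays were apart, as were those of Mcm3 (8.82 and 8.74 with KDM5A-H483A against 8.86 and 8.91 with EV) and of the dim Tyms (3.87 and 3.92 with KDM5A-H483A against 3.86 and 3.81 with EV). These 3 genes compare with 28.2% of all genes that were apart. Gins1, part of the GINS complex of the active helicase, averaged 5.46 ± 0.16 with KDM5A-H483A and 5.22 ± 0.21 with EV. Lig1, the ligase that seals Okazaki fragments, averaged 8.03 ± 0.53 with KDM5A-H483A and 7.72 ± 0.12 with EV. For Mcm6 the means were 8.05 ± 0.71 with KDM5A-H483A and 7.64 ± 0.43 with EV, and for Ccne1, the cyclin E1 gene, 7.16 ± 0.73 with KDM5A-H483A and 6.78 ± 0.11 with EV. The arrays overlapped in each of these 4 genes, and the SD between the KDM5A-H483A arrays of the last 3 exceeded the difference between the means.

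The third comparison sets KDM5A-H483A against wild-type KDM5A, forms that differ by design in a catalytic histidine. The levels of the 2 forms were not checked here, so a difference could not be tied to the histidine alone. Limma called 0 of 32 genes, with 0% of all genes called, and 0 of the 32 reached an unadjusted p under 0.05, where 3.81% of all genes did. The median log2 difference was 0.11, with 22 genes above 0, and -0.01 over all genes, of which 48.4% were above 0. Leaving out 1 array turned this median to 0.32 with 25 genes above 0 (without the first KDM5A-H483A array), or to -0.12 with 9 above 0 (without the second). Without the first wild-type KDM5A array 15 genes were above 0, and without the second 29 were.

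Slbp had the smallest p of the list in this comparison. It read 9.5 and 9.25 (KDM5A-H483A) against 9.72 and 9.64 (wild-type KDM5A), a log2 difference of -0.30 (SE 0.13, unadjusted p = 0.0623, limma adjusted p = 0.928). Uhrf1 read 7.57 and 7.84 (KDM5A-H483A) against 7.91 and 8.15 (wild-type KDM5A), a log2 difference of -0.32 (SE 0.17, unadjusted p = 0.103, limma adjusted p = 0.928). Both arrays of KDM5A-H483A were the lower ones in these 2 genes. With the probe sets used, Pold1, Mcm3 and Rfc3 were apart in the other direction, which made 5 of 32 genes against 31% of all genes. Mcm6 averaged 8.05 ± 0.71 with KDM5A-H483A and 7.48 ± 0.14 with wild-type KDM5A. Rrm1, the large subunit of ribonucleotide reductase, averaged 8.90 ± 0.59 with KDM5A-H483A and 8.40 ± 0.40 with wild-type KDM5A. Lig1 averaged 8.03 ± 0.53 with KDM5A-H483A and 7.65 ± 0.04 with wild-type KDM5A. The arrays of the 2 groups overlapped for these 3 genes.

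**Figure D2:**
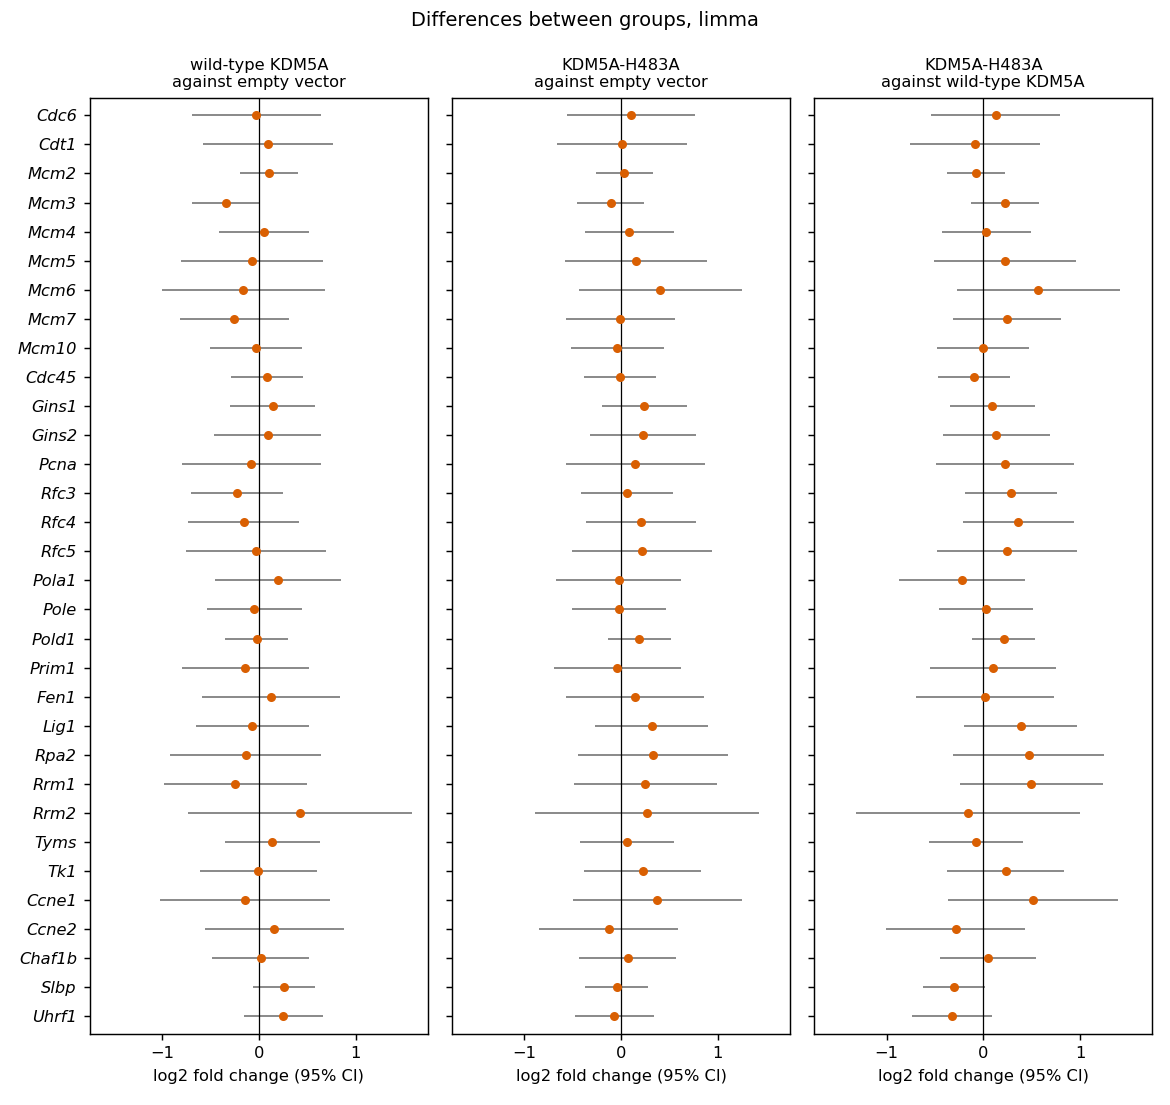
Log2 fold change of each of the 32 genes in the 3 comparisons (points) with the limma 95% confidence interval (bars), on a log2 axis. All 96 intervals include 0.

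For these genes, as over all genes, the 2 arrays of each KDM5A group differed more than the groups did. The 2 measures are not alike, since a group difference is taken between means of 2 arrays. The median absolute difference between the 2 arrays was 0.55 over the 32 genes for KDM5A-H483A, 0.39 for wild-type KDM5A and 0.16 for EV. Over all genes it was 0.19 for KDM5A-H483A, 0.18 for wild-type KDM5A and 0.13 for EV. Between groups, the median absolute difference of the 32 genes was 0.22 for KDM5A-H483A against wild-type KDM5A, 0.12 for KDM5A-H483A against EV and 0.13 for wild-type KDM5A against EV. Over all genes it was 0.13, 0.11 and 0.11 in these comparisons. With 1 array on each side, the differences within a group have no replicate check and are given without a test.

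In the KDM5A-H483A group 28 of 32 genes were higher in array 2, where 49.6% of all genes were, and 18 were higher by at least 0.5 log2 units (1.41-fold), where 8.08% of all genes were. In the wild-type KDM5A group these counts were 27 (47.3% of all genes) and 11 (4.52%). In the EV group 13 genes were higher in array 2 (49.6%), 1 by at least 0.5 (1.6%), and 3 were lower by at least 0.5 (2.19%). None of the 32 genes was lower by at least 0.5 in array 2 of either KDM5A group, where 6.79% of all genes were for KDM5A-H483A and 6.63% for wild-type KDM5A. Both KDM5A groups had array 2 higher for 25 of the 32 genes, where 28.4% of all genes did, and higher by at least 0.5 for 8 of them, where 1.67% did. The second KDM5A-H483A array held the highest value of all 6 arrays for 20 of the 32 genes (23.2% of all genes), and the first wild-type KDM5A array held the lowest for 16 (16.7% of all genes). For 16 genes with KDM5A-H483A and 15 with wild-type KDM5A, array 1 lay below both EV arrays and array 2 above both, a pattern seen in 11.7% and 10.4% of all genes.

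**Figure D3:**
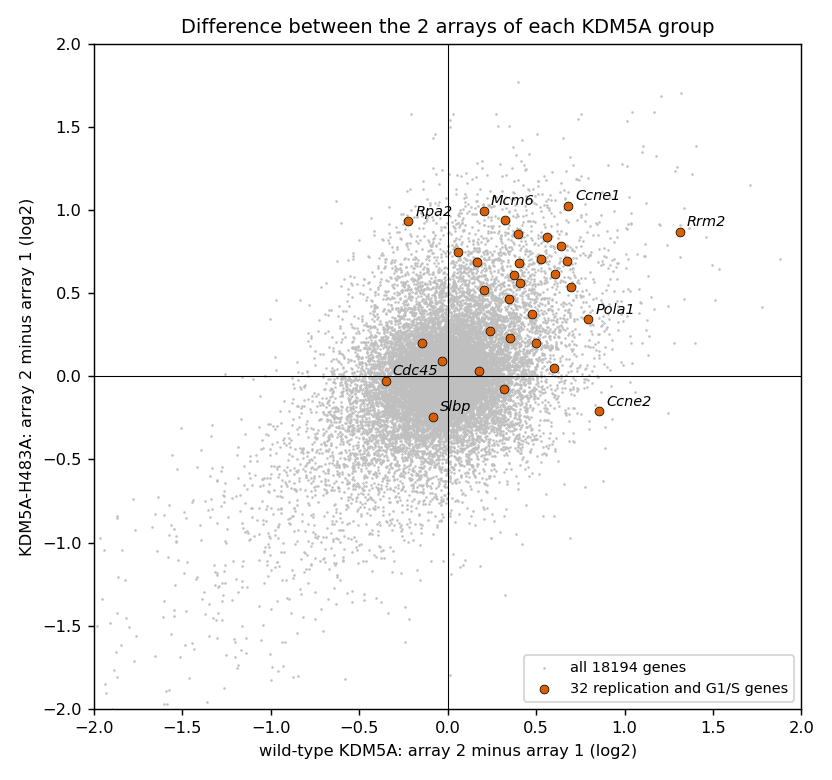
Difference between array 2 and array 1 on the log2 scale, for wild-type KDM5A on the x axis and KDM5A-H483A on the y axis, with all 18194 genes in grey (48 lie outside the axes) and the 32 replication and G1/S genes in orange. The orange points lie mainly in the upper right, 25 of 32 above 0 on both axes.

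Origin licensing loads the MCM2-7 helicase onto DNA with the help of Cdc6 and Cdt1. The median of these 8 genes was higher in array 2 by 0.61 with KDM5A-H483A and by 0.35 with wild-type KDM5A, and the EV median was -0.04. Mcm6 read 7.55 and 8.54 (KDM5A-H483A), 7.38 and 7.58 (wild-type KDM5A) and 7.94 and 7.34 (EV). Its EV arrays thus differed in the opposite direction, by -0.61 with this probe set. A second Mcm6 probe set (1438852_x_at) differed by 1.03 with KDM5A-H483A, 0.88 with wild-type KDM5A and -0.07 with EV. Its log2 difference between KDM5A-H483A and wild-type KDM5A was 0.19, where the brightest had 0.57. Mcm5 read 7.11 and 7.90 (KDM5A-H483A), 6.96 and 7.60 (wild-type KDM5A) and 7.38 and 7.32 (EV). Cdc6, which recruits the helicase, read 6.52 and 7.13 (KDM5A-H483A), 6.39 and 7.0 (wild-type KDM5A) and 6.85 and 6.59 (EV). In Mcm5 and Cdc6 alike, array 1 of each KDM5A group was below both EV arrays and array 2 above both. Cdt1, the loading factor, read 8.79 and 9.49 (KDM5A-H483A), 8.96 and 9.49 (wild-type KDM5A) and 9.01 and 9.24 (EV). Mcm7 read 9.90 and 10.51 (KDM5A-H483A), 9.77 and 10.15 (wild-type KDM5A) and 10.29 and 10.14 (EV), and Mcm4 read 8.25 and 8.77 (KDM5A-H483A), 8.37 and 8.58 (wild-type KDM5A) and 8.43 and 8.42 (EV). With its brightest probe set, Mcm2 was the flattest of the subunit genes, between 9.55 and 9.77 in all arrays. Its arrays differed by 0.03, 0.18 and 0.05 with KDM5A-H483A, wild-type KDM5A and EV. A second Mcm2 probe set (1448777_at) differed by 0.37, 0.16 and 0.23 in these groups.

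Helicase activation adds Cdc45 and the GINS complex to the loaded helicase, with Mcm10 as a firing factor. Gins2 read 7.38 and 8.07 (KDM5A-H483A), 7.51 and 7.67 (wild-type KDM5A) and 7.51 and 7.49 (EV). Mcm10 read 7.03 and 7.49 (KDM5A-H483A), 7.09 and 7.44 (wild-type KDM5A) and 7.27 and 7.33 (EV). Cdc45 did not share this pattern and was lower in array 2 of every group, at 6.38 and 6.35 (KDM5A-H483A), 6.64 and 6.29 (wild-type KDM5A) and 6.45 and 6.32 (EV).

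The sliding clamp PCNA tethers polymerases to DNA, and the RFC complex loads it. Pcna read 10.07 and 10.92 (KDM5A-H483A), 10.07 and 10.47 (wild-type KDM5A) and 10.49 and 10.21 (EV). Its second KDM5A-H483A array was the highest of the 6, 1.81-fold above the first. Rfc5 read 7.33 and 8.27 (KDM5A-H483A), 7.40 and 7.72 (wild-type KDM5A) and 7.61 and 7.57 (EV), and Rfc4 read 6.50 and 7.07 (KDM5A-H483A), 6.22 and 6.63 (wild-type KDM5A) and 6.72 and 6.44 (EV). With its brightest probe set, Rfc3 was nearly level within both KDM5A groups, with differences of 0.09 for KDM5A-H483A and -0.03 for wild-type KDM5A. The EV arrays differed by -0.57. A second, dimmer Rfc3 probe set (1423700_at, mean 5.26) differed by 0.88 with KDM5A-H483A, -0.07 with wild-type KDM5A and -0.98 with EV. Its log2 difference between KDM5A-H483A and EV was 0.66, where the brightest had 0.06.

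Polymerase and primase genes had a larger median difference in the wild-type KDM5A group (0.60) than in the KDM5A-H483A group (0.27), which was not tested. Pola1, the catalytic subunit of polymerase alpha, read 7.26 and 7.60 (KDM5A-H483A), 7.25 and 8.05 (wild-type KDM5A) and 7.37 and 7.53 (EV). Prim1, the primase that makes RNA primers, read 7.48 and 8.01 (KDM5A-H483A), 7.30 and 8.0 (wild-type KDM5A) and 7.83 and 7.74 (EV). In both genes array 2 of each KDM5A group was above both EV arrays. Pole, of the leading strand polymerase, differed by 0.20, 0.50 and 0.27 with KDM5A-H483A, wild-type KDM5A and EV. Pold1 differed by 0.20 with KDM5A-H483A, -0.14 with wild-type KDM5A and -0.08 with EV. A brighter Pold1 probe set (1456055_x_at) differed by 0.28 with KDM5A-H483A, 0.27 with wild-type KDM5A and -0.13 with EV. There the arrays of the 2 KDM5A groups overlapped, at 6.68 and 6.95 (KDM5A-H483A) and 6.54 and 6.81 (wild-type KDM5A).

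Lagging strand genes were not alike in the KDM5A groups. Fen1, the flap nuclease, was higher in array 2 of both, at 7.13 and 7.82 (KDM5A-H483A) and 7.12 and 7.79 (wild-type KDM5A), against 7.27 and 7.39 (EV). A brighter Fen1 probe set (1436454_x_at, mean 11.24) differed by only 0.09 with KDM5A-H483A, by 0.80 with wild-type KDM5A and by 0.15 with EV. Lig1 read 7.66 and 8.41 (KDM5A-H483A), 7.62 and 7.68 (wild-type KDM5A) and 7.80 and 7.63 (EV). Rpa2, a subunit of the single-strand binding protein RPA, read 6.34 and 7.27 (KDM5A-H483A), 6.45 and 6.22 (wild-type KDM5A) and 6.72 and 6.22 (EV). The second KDM5A-H483A array was thus alone above all others for Lig1 and Rpa2.

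Nucleotide supply held the widest difference of the list. Rrm2, the regulatory subunit of ribonucleotide reductase that is made in S phase, read 8.57 and 9.45 (KDM5A-H483A), 8.51 and 9.82 (wild-type KDM5A) and 8.45 and 9.03 (EV), so array 2 was 2.48-fold above array 1 with wild-type KDM5A. With its brightest probe set, Rrm2 was the 1 gene of the list that was higher by at least 0.5 in array 2 of the EV group too. Of its further probe sets, 1434437_x_at differed by 0.51 in the EV group and 1416120_at by 0.06. Rrm1 read 8.48 and 9.31 (KDM5A-H483A), 8.12 and 8.68 (wild-type KDM5A) and 8.73 and 8.56 (EV). Tk1, the thymidine kinase of S phase cells, read 7.88 and 8.56 (KDM5A-H483A), 7.79 and 8.19 (wild-type KDM5A) and 7.93 and 8.07 (EV). Tyms stayed between 3.67 and 4.27 in all arrays.

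Cyclin E drives cells into S phase with CDK2. Ccne1 read 6.64 and 7.67 (KDM5A-H483A), 6.30 and 6.98 (wild-type KDM5A) and 6.70 and 6.86 (EV). With the probe set used, its difference of 1.03 (2.04-fold) between the KDM5A-H483A arrays was the largest of the list in that group. A brighter Ccne1 probe set (1441910_x_at) differed by 0.44 with KDM5A-H483A, 0.72 with wild-type KDM5A and 0.15 with EV. Its log2 difference between KDM5A-H483A and EV was 0.14, where the one used had 0.38. Ccne2 read 7.5 and 7.29 (KDM5A-H483A), 7.25 and 8.11 (wild-type KDM5A) and 7.30 and 7.75 (EV). The paralogs thus differed in direction within the KDM5A-H483A group and had the same direction with wild-type KDM5A and EV.

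Histone supply and chromatin copying genes did not share 1 direction. Chaf1b, a CAF-1 subunit, read 6.16 and 6.54 (KDM5A-H483A), 6.06 and 6.54 (wild-type KDM5A) and 6.36 and 6.20 (EV). With its brightest probe set, Uhrf1 was higher in array 2 of every group, by 0.27 with KDM5A-H483A, 0.24 with wild-type KDM5A and 0.28 with EV. A second Uhrf1 probe set (1415811_at) differed by 0.14 with KDM5A-H483A, 0.51 with wild-type KDM5A and -0.32 with EV. Slbp was lower in array 2 of both KDM5A groups, with differences of -0.24 for KDM5A-H483A and -0.08 for wild-type KDM5A, and differed by 0.05 with EV.

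Further probe sets of the same genes were examined as well. Of 39 such probe sets for 25 genes, 22 had a mean above the median gene, among them several ending in _x_at. All 22 were higher in array 2 of both KDM5A groups, with 10 of 22 higher in array 2 of EV. Their median differences were 0.47 with KDM5A-H483A, 0.48 with wild-type KDM5A and -0.05 with EV. The 17 dimmer ones had median differences of 0.11 with KDM5A-H483A, 0.00 with wild-type KDM5A and -0.03 with EV. Mcm3 is a case where probe sets disagree, as are Uhrf1, Rfc3, Mcm6, Rrm2, Mcm2, Ccne1, Fen1 and Pold1 above. The brightest of Mcm3 (1426653_at) differed by -0.07 between the KDM5A-H483A arrays. There 1420028_s_at read 6.93 and 7.93 and 1426652_at read 6.04 and 7.13. These last 2 probe sets had log2 differences of 0.49 and 0.50 between KDM5A-H483A and EV, where the brightest had -0.11. For Uhrf1, 1415811_at had a log2 difference of -0.11 between wild-type KDM5A and EV, where the brightest had 0.25. Between KDM5A-H483A and wild-type KDM5A these were -0.04 and -0.32. A second Slbp probe set (1430058_at) read 5.0 and 4.61 (KDM5A-H483A), 5.45 and 5.29 (wild-type KDM5A) and 5.41 and 5.28 (EV), so it was lower with KDM5A-H483A than with wild-type KDM5A, as the brightest was, but its difference between wild-type KDM5A and EV was 0.03.

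A wider list of 57 measured replication genes, of 60 listed, was set beside these. Limma called 0 of them in each comparison, with 0% of all genes called. At an unadjusted p under 0.05 there was 1 higher and 1 lower gene, both between KDM5A-H483A and wild-type KDM5A. In that comparison 3.81% of all genes reached this level, so 2 of 57 is near the share over all genes. These were Orc3, an origin recognition subunit (log2 difference 0.32, unadjusted p = 0.0338, limma adjusted p = 0.928), and Pole2, a polymerase epsilon subunit. Pole2 read 7.20 and 7.09 (KDM5A-H483A) against 7.51 and 7.85 (wild-type KDM5A) (log2 difference -0.54, unadjusted p = 0.0117, limma adjusted p = 0.928), and 7.26 and 7.36 (EV). Within groups, 43 of the 57 were higher in array 2 with KDM5A-H483A (49.6% of all genes), 47 with wild-type KDM5A (47.3%) and 25 with EV (49.6%). Median differences were 0.28 for KDM5A-H483A, 0.25 for wild-type KDM5A and -0.03 for EV.

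Genes of neighbouring cell cycle phases were compared in the same way. Of 24 measured G2 and mitosis genes, 20 were higher in array 2 with KDM5A-H483A (49.6% of all genes), 18 with wild-type KDM5A (47.3%) and 13 with EV (49.6%). Their median differences were 0.34, 0.36 and 0.02 for KDM5A-H483A, wild-type KDM5A and EV. Of 14 genes of G1 and G1/S control (cyclins D and A, their kinases, E2F1 to E2F3 and others), the counts were 5 with KDM5A-H483A, 8 with wild-type KDM5A and 7 with EV, with median differences of -0.11, 0.06 and 0.02. In that list Ccnd1, the cyclin D1 gene, read 10.54 and 10.72 (KDM5A-H483A), 10.51 and 10.44 (wild-type KDM5A) and 10.02 and 9.98 (EV). Both comparisons share these EV arrays. The log2 difference from the EV mean was 0.63 for KDM5A-H483A (SE 0.13, unadjusted p = 0.00208, limma adjusted p = 0.999) and 0.47 for wild-type KDM5A (SE 0.13, unadjusted p = 0.00838, limma adjusted p = 1), and neither passed the threshold.

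Most fibroblast markers differed between the KDM5A arrays in the opposite direction to most replication genes. Of the 11 markers, 3 were higher in array 2 with KDM5A-H483A (Vim, S100a4 and Thy1), 0 with wild-type KDM5A and 2 with EV. Over all genes these shares were 49.6%, 47.3% and 49.6%. The median of the 11 markers differed between array 2 and array 1 by -0.92 with KDM5A-H483A, -0.85 with wild-type KDM5A and -0.19 with EV, and their summed linear signal was 42070.6 and 30799.7 (KDM5A-H483A), 44594.8 and 27399.5 (wild-type KDM5A) and 37947.7 and 35564.5 (EV). Dcn, the gene of the proteoglycan decorin, read 8.07 and 5.67 (KDM5A-H483A), 8.26 and 5.97 (wild-type KDM5A) and 7.80 and 6.77 (EV), while the surface marker Thy1 read 7.31 and 7.83 (KDM5A-H483A), 7.52 and 7.46 (wild-type KDM5A) and 7.63 and 7.45 (EV). Both were chosen after their values were seen. Markers of the other cell types had median differences of 0.05 with KDM5A-H483A, -0.02 with wild-type KDM5A and 0.11 with EV. The part of these markers in the differences of the replication genes was not tested.

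**Figure D4:**
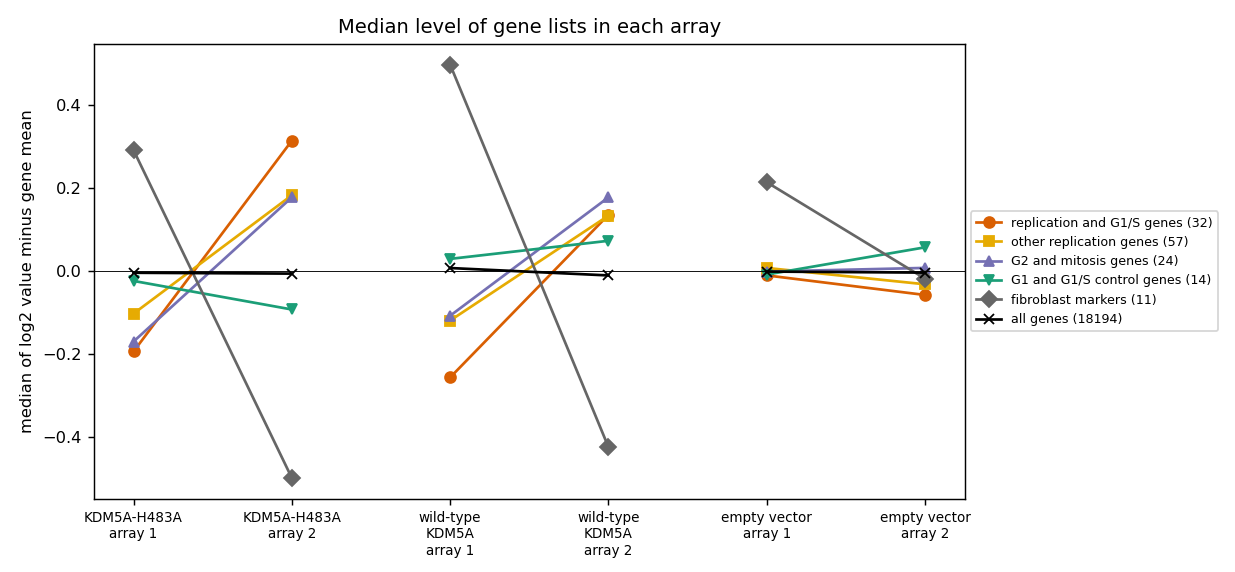
Median over the genes of a list of the log2 value minus each gene's mean over the 6 arrays, for each array, with a line joining the 2 arrays of a group. Replication and G1/S genes lie at -0.19 and 0.31 (KDM5A-H483A), -0.26 and 0.13 (wild-type KDM5A) and -0.01 and -0.06 (EV), fibroblast markers run the other way in each KDM5A group, and all genes stay near 0.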

How the data were processed

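Total RNA of 6 samples was measured on Affymetrix arrays. The deposited log2 expression values were made by the authors with RMA (background subtraction, quantile normalization and probe set summary), per the submitters' processing notes, which give no version. Array medians lay between 4.55 and 4.60, and no further scaling was applied. Of 45101 probe sets, 34958 had 1 gene symbol in the platform annotation, 932 had several and 9211 had none. Symbols were updated through Entrez IDs (34754 matched), leaving 18194 genes, each with its brightest probe set not ending in _x_at where another existed.

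Limma (version 3.58.1, R 4.3.3) fitted 1 mean per group over all 6 arrays (3 residual degrees of freedom, prior 3.42). Two-sided p-values were corrected across the 18194 genes (Benjamini-Hochberg) at a threshold of 0.05. Precision is limited by the number of arrays. The procedure was tested on simulated data. The genes and lists were chosen with earlier results of these data known. Genes named with statistics were the 5 with the smallest unadjusted p per comparison and the 5 with the largest array difference per KDM5A group, and up to 3 with the smallest p per further list. Alternatives were a replicate block, the mean of all probe sets, a filter on dim genes, a trended prior, fits of 2 groups alone, median centring and leaving out each array.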

Additional observations from a re-analysis of the deposited data

How the results depend on the processing

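Limma called 0 of the 32 genes and 0 of all genes in each comparison under every alternative run, with smallest adjusted p-values between 0.23 and 1. The counts of genes above 0 stayed within 1.5 times the reported ones under every alternative except leaving out arrays, which gave 6 to 24 genes for wild-type KDM5A against EV, 6 to 28 for KDM5A-H483A against EV and 9 to 29 for KDM5A-H483A against wild-type KDM5A. Among the 5 genes with the smallest p per comparison, leaving out an array turned the sign of Rfc3 for wild-type KDM5A against EV (-0.514 to 0.0603). For KDM5A-H483A against EV it turned Lig1 (-0.0571 to 0.69), Mcm6 (-0.0917 to 0.91) and Ccne1 (-0.14 to 0.89). Over all 32 genes, up to 12 signs turned for wild-type KDM5A against EV, 18 for KDM5A-H483A against EV and 13 for KDM5A-H483A against wild-type KDM5A. The mean of all probe sets turned 4, 7 and 5 signs in these comparisons. The cause was not tested. The counts and medians of array 2 against array 1 changed little with the mean of all probe sets, the filter on dim genes or median centring, which were chosen after seeing the data (26 to 28 genes with KDM5A-H483A, 25 to 28 with wild-type KDM5A and 13 to 15 with EV). The labels give the groups the same replicate numbers without saying that a number marks a shared batch. Deviations of same-numbered arrays correlated across genes at 0.534 between KDM5A-H483A and wild-type KDM5A, 0.016 between KDM5A-H483A and EV, and 0.312 between wild-type KDM5A and EV. Since this was not so for every pair, the fit without the block was kept, and whether a number marks a shared batch was not tested. With the replicate number as a block 0 genes were called. At an unadjusted p under 0.05 the block gave 922 genes, against 694 without it, for KDM5A-H483A against wild-type KDM5A, 502 against 301 for KDM5A-H483A against EV, and 713 against 459 for wild-type KDM5A against EV. Array signals near background, as for Tyms, limit what a difference can show.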

Other observations

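Promoter letters were also set beside the array differences for all genes with a RefSeq window. Of 550 array genes with E2F letters, 85 were higher by at least 0.5 log2 units in array 2 with KDM5A-H483A, 38 with wild-type KDM5A and 8 with EV, and of 13903 genes without them the counts were 1127, 614 and 220 in these groups. Median differences of the genes with the letters were 0.06, 0.03 and -0.01 with KDM5A-H483A, wild-type KDM5A and EV, and those of the genes without them 0.00, -0.02 and 0.00. Among the replication and G1/S genes, the 11 with the letters and the 16 without had median differences of 0.61 and 0.62 with KDM5A-H483A, and of 0.32 and 0.41 with wild-type KDM5A. These values are descriptions with 1 array on each side, and no test was made.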
